A study of Mus musculus with 41 samples.

Results

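Scp2, Txndc17, Eloc, Btf3, Tomm7 and Ywhaq are 6 mouse genes that were chosen on their diet by time effect in these arrays, that is, on how much the difference between a high fat and a control diet varied over the day. The platform annotation assigned 18 probe sets to them out of 45037, and 6 of 17097 genes. Scp2 and Btf3 had 1 probe set each, Txndc17 had 3, Eloc and Tomm7 had 4 each and Ywhaq had 5. All 18 are described here, with no filter on low values. The probe set of a gene whose mean over the 41 arrays was highest is called its leading probe set. The diet by time effect, the diet difference at each time point and the shape of the course in each diet were used in that choice, so they are described without a test.

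RNA came from epidermal stem cells of 15 week old C57B6/J females of wild type genotype. They had eaten a high fat diet or its control diet at will for 7 weeks, starting at 8 weeks of age. Cells were collected at 6 times of day, 4 h apart, given as zeitgeber time (ZT, hours after lights on). At ZT0 there were 4 control and 3 high fat arrays, at ZT4 3 and 4, at ZT8 2 and 2, at ZT12 3 and 4, and at ZT16 and ZT20 4 and 4, or 20 and 21 in all. The labels do not say that each array is a separate mouse, so every SD and p-value below measures the spread between arrays. All mice of 1 day belonged to 1 time point, so collection day and time of day cannot be told apart, and the day may also have differed between the diets within a time point.

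The 6 genes have different housekeeping roles. Scp2 encodes sterol carrier protein 2, which moves lipids between membranes, and a longer product of the same gene is a thiolase of peroxisomal fatty acid oxidation. Txndc17 encodes a thioredoxin-like disulfide reductase. Eloc encodes elongin C, an adaptor of cullin ubiquitin ligases and a subunit of the elongin complex. Btf3 encodes the beta subunit of the nascent polypeptide-associated complex, which binds proteins as they leave the ribosome. Tomm7 encodes a small subunit of the TOM channel, through which proteins enter mitochondria. Ywhaq encodes 14-3-3 theta, which binds phosphorylated proteins. In skin, the circadian clock times the metabolism and division of epidermal stem cells over the day.

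The stretch upstream of the start is shown for the Scp2 and Txndc17 genes, the pair with the highest diet by time F among the 6, to show which known promoter motifs stand there. RefSeq windows of the GRCm38.p6 build matched 4 of the 6 genes. Each line gives the 250 bases before the annotated start, 5′ to 3′ on the gene's strand, and capitals mark AGGTCA, the half-site of many nuclear receptors, and CCGCCC, the reverse complement of the GC box GGGCGG. The Scp2 window is chr4:108118548-108118797 on the minus strand and the Txndc17 window is chr11:72207304-72207553 on the plus strand.
Scp2: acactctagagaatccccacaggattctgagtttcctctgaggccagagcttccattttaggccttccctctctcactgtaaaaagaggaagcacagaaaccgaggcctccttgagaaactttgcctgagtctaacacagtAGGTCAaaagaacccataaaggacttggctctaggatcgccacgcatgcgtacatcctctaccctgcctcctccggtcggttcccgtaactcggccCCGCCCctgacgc
Txndc17: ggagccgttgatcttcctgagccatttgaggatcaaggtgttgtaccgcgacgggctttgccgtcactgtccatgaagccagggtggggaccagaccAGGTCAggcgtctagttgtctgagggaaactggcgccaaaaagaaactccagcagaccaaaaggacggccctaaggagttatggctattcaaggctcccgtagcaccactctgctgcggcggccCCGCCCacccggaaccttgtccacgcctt
AGGTCA lay 109 bases before the start in Scp2 and 153 in Txndc17, and the GC box 13 and 29 bases before it. Both strands were searched. AGGTCA was found in 14% of the 32851 windows of the table and the GC box in 32.7%. The E-box CACGTG, bound by the clock activators, is in 6.02% of windows, and the D-box TTATGTAA, bound by clock-controlled leucine zipper factors, is in 0.819%. Neither was found in the windows of these 4 genes. CCAAT, found in 33.8% of windows, stood 236 and 183 bases before the start of Ywhaq on the reverse strand. A match is a run of letters, and no binding was measured.

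Of the whole table, values ran from 2.17 to 13.5 on the log2 scale and array medians from 6.41 to 6.44. Correlations between arrays ran from 0.937 to 0.995. On the second principal component (17.0% of variance) control ZT8 lay at -70.0 ± 17.9 (SD, n = 2), high fat ZT8 at -20.0 ± 12 (SD, n = 2) and high fat ZT12 at 33 ± 13.7 (SD, n = 4), while the other groups lay between -8.54 and 6.96. All 7 basal keratinocyte markers were measured, with group means of their average from 11.2 in control ZT8 to 11.9 in high fat ZT16. The average of 6 suprabasal markers ranged from 9.03 to 9.49, that of 6 leukocyte markers from 6.41 to 7.09, 6 fibroblast markers from 5.61 to 5.78, 5 melanocyte markers from 6.03 to 6.31, 4 endothelial markers from 5.64 to 5.73 and 2 measured of 4 adipocyte markers from 4.84 to 4.90. No value of this scale can reach 0.

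Both ends of the main pattern lie in those groups. On the leading probe sets control was lowest at ZT8 in 5 of the 6 genes, Btf3 being the exception with its low at ZT16, and high fat was highest at ZT12 in all 6. The diet difference of each of the 6 was positive at ZT8 and ZT12 and negative at ZT20. Marker levels at ZT8 and ZT12 are given as group means. At ZT8 basal markers stood at 11.2 on control and 11.43 on high fat, suprabasal at 9.49 and 9.42, and leukocyte at 6.41 and 6.67. At ZT12 basal markers stood at 11.79 and 11.81, suprabasal at 9.03 and 9.19, and leukocyte at 6.81 and 6.95. Arrays of the diets overlapped for basal markers at both times, for suprabasal markers at ZT8 and for leukocyte markers at ZT12. They did not overlap for leukocyte markers at ZT8 or suprabasal markers at ZT12. The 3′ minus 5′ control probe sets of Actb, a sign of RNA quality, lay at -0.616 and -0.631 at ZT8 and at -0.729 and -0.748 at ZT12 in control and high fat. Those of Gapdh lay at -0.368 and -0.334 at ZT8 and at -0.307 and -0.270 at ZT12. The part of these shifts in the results was not tested. In such bulk samples, fewer cells of a type and less RNA per cell cannot be told apart.

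Scp2 followed this pattern on its only probe set, 1426219_PM_at. On the control diet its arrays read 9.08, 9.02, 9.0005 and 8.998 at ZT0; 8.73, 8.76 and 8.72 at ZT4; 8.37 and 8.41 at ZT8; 8.68, 8.74 and 8.78 at ZT12; 8.71, 8.73, 8.78 and 8.64 at ZT16; and 9.06, 8.83, 9.07 and 9.08 at ZT20. On the high fat diet they read 8.55, 8.73 and 8.87 at ZT0, then 8.69, 8.73, 8.81 and 8.76 at ZT4, then 9.04 and 9.32 at ZT8, then 9.25, 9.50, 9.32 and 9.36 at ZT12, then 8.81, 8.92, 8.75 and 8.52 at ZT16, and 8.80, 8.82, 8.74 and 8.66 at ZT20. The control course was thus high at ZT20 and ZT0 with a trough at ZT8, while the high fat course was flat apart from higher values at ZT8 and ZT12. High fat minus control came to 0.79 ± 0.10 (SE) at ZT8 and 0.62 ± 0.08 at ZT12, or 1.729 and 1.541 fold. It was -0.31 ± 0.08 at ZT0 and -0.25 ± 0.07 at ZT20. At these 4 times no array of a diet overlapped those of the other. At ZT4 and ZT16 the arrays overlapped, with differences of 0.01 ± 0.08 and 0.04 ± 0.07.

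Txndc17 differed most at ZT8 on its leading probe set, 1423034_PM_at. Control arrays read 11.57, 11.56, 11.60 and 11.52 at ZT0, then 11.62, 11.60 and 11.54 at ZT4, then 10.50 and 10.48 at ZT8, then 11.45, 11.40 and 11.51 at ZT12, then 11.62, 11.60, 11.59 and 11.44 at ZT16, and 11.56, 11.66, 11.57 and 11.69 at ZT20. High fat arrays read 11.42, 11.56 and 11.43 at ZT0, then 11.62, 11.51, 11.54 and 11.62 at ZT4, then 11.62 and 11.36 at ZT8, then 11.90, 11.74, 11.98 and 11.65 at ZT12, then 11.48, 11.58, 11.48 and 11.59 at ZT16, and 11.55, 11.36, 11.43 and 11.47 at ZT20. The control arrays of ZT8 lay at or below 10.50 and every other control array at or above 11.40, while the lowest high fat array read 11.36. The difference was 1.00 ± 0.08 at ZT8 (2.001 fold), 0.36 ± 0.06 at ZT12 and -0.17 ± 0.06 at ZT20, without overlap. At ZT0, ZT4 and ZT16 it was -0.09 ± 0.06, -0.02 ± 0.06 and -0.03 ± 0.06, and the arrays overlapped.
A second Txndc17 probe set, 1423035_PM_s_at, whose suffix marks probes that transcripts of several genes may share, had differences of 0.64 at ZT8 and 0.32 at ZT12. The third, 1423036_PM_at, had a mean value of 4.71 and went the other way at ZT12, with -0.35 and no overlap.

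Eloc showed the same low at control ZT8 and high at high fat ZT12, in a smaller range. On 1427914_PM_a_at the control arrays read 10.37, 10.52, 10.38 and 10.42 at ZT0, then 10.29, 10.30 and 10.31 at ZT4, then 10.05 and 10.02 at ZT8, then 10.36, 10.31 and 10.38 at ZT12, then 10.37, 10.41, 10.29 and 10.30 at ZT16, and 10.41, 10.44, 10.62 and 10.58 at ZT20. The high fat arrays read 10.29, 10.29 and 10.36 at ZT0, then 10.17, 10.45, 10.27 and 10.26 at ZT4, then 10.54 and 10.53 at ZT8, then 10.60, 10.59, 10.65 and 10.64 at ZT12, then 10.39, 10.47, 10.41 and 10.35 at ZT16, and 10.39, 10.26, 10.22 and 10.30 at ZT20. The diets did not overlap at ZT0, ZT8, ZT12 and ZT20. Their differences there were -0.11 ± 0.05, 0.50 ± 0.07, 0.27 ± 0.05 and -0.22 ± 0.05.
The other 3 Eloc probe sets were less alike. On 1452593_PM_a_at the difference was 0.51 at ZT8, 0.52 at ZT12 and -0.46 at ZT20, all without overlap. On 1436226_PM_at it was 0.20 at ZT8, with overlap, and 0.38 at ZT12, without. On 1427915_PM_s_at, the most variable with a residual SD of 0.381, it was 0.33 at ZT8, -0.25 at ZT12 and -0.76 at ZT4, of which only the last was free of overlap.

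Btf3 varied little, and its arrays did not overlap between the diets at 5 of 6 times. The gene was chosen on these values, so nothing is read from that count. Of all probe sets, 24.1% were higher on high fat without overlap at ZT8 and 16% at ZT12. Its only probe set, 1423839_PM_a_at, read on control 11.51, 11.53, 11.45 and 11.47 at ZT0, then 11.56, 11.66 and 11.60 at ZT4, then 11.43 and 11.50 at ZT8, then 11.48, 11.39 and 11.43 at ZT12, then 11.37, 11.38, 11.41 and 11.38 at ZT16, and 11.65, 11.54, 11.63 and 11.64 at ZT20. On high fat it read 11.48, 11.50 and 11.44 at ZT0, then 11.47, 11.44, 11.47 and 11.44 at ZT4, then 11.59 and 11.69 at ZT8, then 11.65, 11.71, 11.68 and 11.63 at ZT12, then 11.59, 11.49, 11.50 and 11.47 at ZT16, and 11.38, 11.41, 11.37 and 11.50 at ZT20. Control was higher at ZT4 and ZT20 and high fat at ZT8, ZT12 and ZT16, and the control low was at ZT16 rather than ZT8. The differences were -0.15 ± 0.04 at ZT4, 0.17 ± 0.05 at ZT8, 0.24 ± 0.04 at ZT12, 0.13 ± 0.04 at ZT16 and -0.20 ± 0.04 at ZT20.

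Tomm7 was higher on high fat by about as much at ZT12 as at ZT8. On 1428215_PM_x_at, whose suffix marks probes that resemble other sequences, control arrays read 11.01, 10.93, 10.89 and 10.85 at ZT0, then 10.88, 10.81 and 10.79 at ZT4, then 10.50 and 10.49 at ZT8, then 10.79, 10.70 and 10.79 at ZT12, then 10.76, 10.77, 10.75 and 10.65 at ZT16, and 11.03, 10.81, 11.01 and 11.02 at ZT20. High fat arrays read 10.87, 11.004 and 10.996 at ZT0, then 10.59, 10.69, 10.83 and 10.64 at ZT4, then 10.85 and 11.09 at ZT8, then 11.28, 11.24, 11.18 and 11.19 at ZT12, then 10.70, 10.59, 10.64 and 10.63 at ZT16, and 10.88, 10.68, 10.73 and 10.80 at ZT20. The diets were apart at ZT8 and ZT12 and overlapped at the other 4 times. The differences were 0.48 ± 0.08 at ZT8, 0.46 ± 0.06 at ZT12 and -0.19 ± 0.06 at ZT20.
1428214_PM_at gave 0.62 and 0.61 at ZT8 and ZT12, and 1434732_PM_x_at gave 0.25 and 0.22, all without overlap. 1428216_PM_s_at, with a mean of 6.55, gave 0.05 and 0.04, with overlap.

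Ywhaq had the control course of Scp2 with a smaller peak on high fat. On 1420828_PM_s_at control arrays read 11.07, 10.87, 10.95 and 10.88 at ZT0, then 10.82, 10.77 and 10.76 at ZT4, then 10.51 and 10.45 at ZT8, then 10.71, 10.70 and 10.79 at ZT12, then 10.77, 10.92, 10.88 and 10.80 at ZT16, and 11.03, 11.06, 11.16 and 11.02 at ZT20. High fat arrays read 10.78, 10.95 and 10.93 at ZT0, then 10.89, 10.84, 10.85 and 10.80 at ZT4, then 10.87 and 10.89 at ZT8, then 10.95, 11.09, 11.11 and 10.94 at ZT12, then 10.90, 10.81, 10.83 and 10.70 at ZT16, and 10.87, 10.74, 10.75 and 10.89 at ZT20. No overlap was seen at ZT8, ZT12 and ZT20, where the differences were 0.40 ± 0.07, 0.29 ± 0.06 and -0.26 ± 0.05.
Of the other 4 Ywhaq probe sets, 1420829_PM_a_at gave 0.80 at ZT8, 0.58 at ZT12 and -0.25 at ZT20, without overlap. 1420830_PM_x_at and 1460621_PM_x_at gave 0.45 and 0.29 at ZT8 and 0.45 and 0.35 at ZT12, without overlap. 1436846_PM_x_at gave 0.14 and 0.17, with overlap, and -0.27 at ZT20, without.

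**Figure D1:**
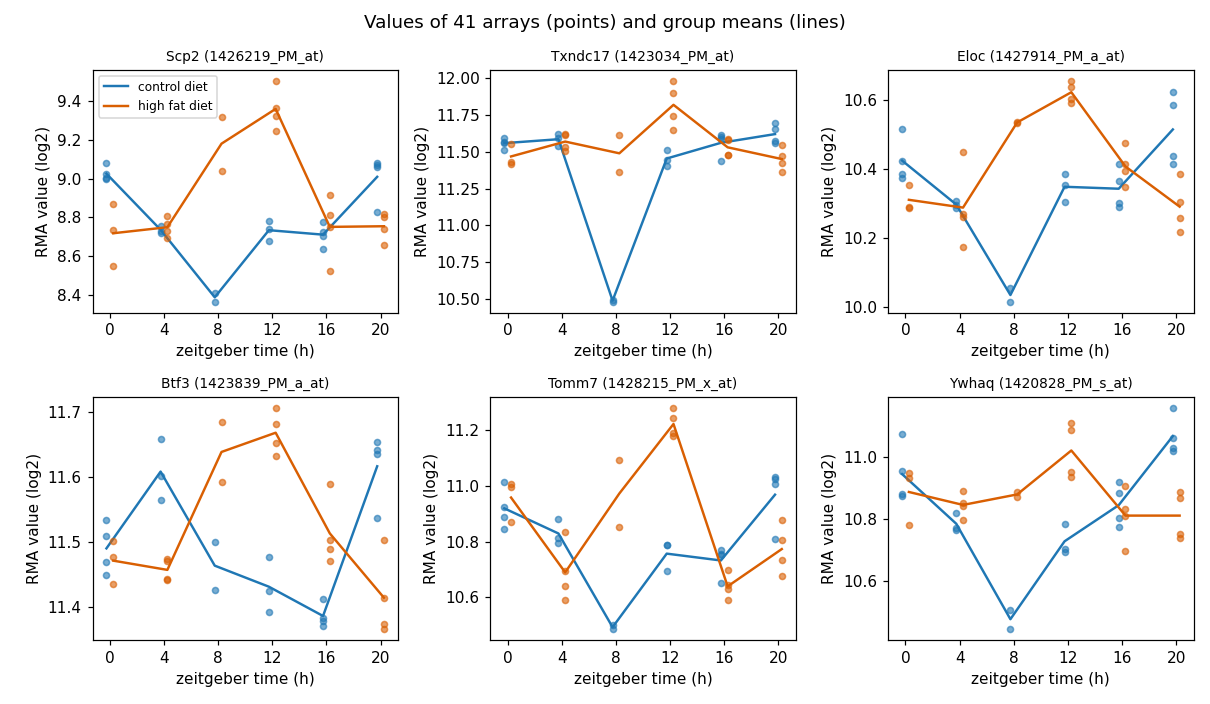
RMA value on the log2 scale (vertical axis) against zeitgeber time in hours for the leading probe set of each gene, with a point for each of the 41 arrays and a line through the group means, control in blue and high fat in orange. Control falls to a low at ZT8 in 5 of the 6 panels, Btf3 being the exception, and high fat is highest at ZT12 in all 6.

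Over all 18 probe sets the difference was positive in 18 at ZT8 and 16 at ZT12, and negative in 18 at ZT20. The median difference was 0.42 at ZT8, 0.34 at ZT12 and -0.19 at ZT20, against 0.01, 0.02 and 0.00 over all probe sets. At ZT0, ZT4 and ZT16 the medians were -0.05, -0.11 and -0.06. High fat was higher without overlap in 13 probe sets at ZT8, where 24.1% of all probe sets were, and in 14 at ZT12, where 16% were. Since the members were chosen on this contrast, nothing is read from these counts. Among the 5719 probe sets with a mean above 9, the median difference was 0.04 at both times, and 55.24% and 55.76% were positive.

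**Figure D2:**
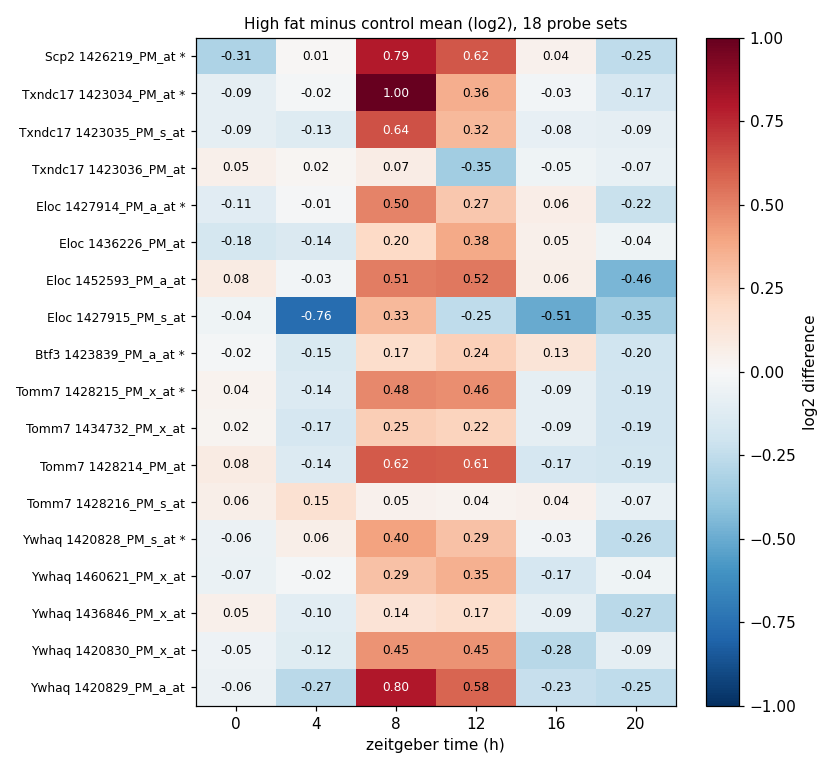
High fat minus control mean on the log2 scale for the 18 probe sets (rows, leading ones starred) at 6 zeitgeber times in hours (columns), red for higher and blue for lower on high fat. The ZT8 column is positive in all 18 rows, up to 1.00 in Txndc17, and the ZT20 column is negative in all 18.

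The courses of the diets had a correlation below 0 in part of the probe sets, which by itself is not an opposite course. Across the 6 group means of each diet, the correlation between diets was -0.59 for Scp2, 0.12 for Txndc17, -0.53 for Eloc, -0.67 for Btf3, -0.23 for Tomm7 and -0.38 for Ywhaq on the leading probe sets, as a description over 6 points. It was below 0 in 10 of the 18 probe sets, and in 28.6% of all genes with 1 probe set per gene, over the 6 times. Without ZT8 the correlation was below 0 in 15 of the 18, without ZT12 in 10 and without both in 7. The share of all genes is not given for these fewer times, so nothing is read from those counts. Without both, the leading probe sets ran from -0.914 in Btf3 to 0.703 in Tomm7. The lowest correlation over the 6 times, -0.748 in Tomm7 1428216_PM_s_at, came with group means that ranged over only 0.16 on control and 0.06 on high fat. The place of the extremes is described next. Control was lowest at ZT8 in 15 of 18, high fat was highest at ZT12 in 15, and both held in 14, as in 12.2% of all probe sets. The share of all probe sets is given only for both together. These group means were used in choosing the genes, so nothing is read from the counts. A 24 h cosine fitted to each diet put the control peak at ZT21.6 and the high fat peak at ZT10.5 in Scp2, a gap of 11.1 h, with amplitudes (mean to peak) of 0.25 ± 0.05 and 0.31 ± 0.05 log2 units. In Ywhaq the amplitudes were 0.23 ± 0.03 on control and 0.07 ± 0.03 on high fat, with peaks at ZT20.8 and ZT9.84. The gap between peaks ranged from 9.08 h (Eloc) to 11.82 h (Tomm7) over the leading probe sets. Over all 18 it went down to 1.48 h in Eloc 1427915_PM_s_at, with 5.36 h in Txndc17 1423036_PM_at and 5.70 and 6.09 h in Ywhaq 1460621_PM_x_at and 1420830_PM_x_at. Amplitudes were 0.15 ± 0.13 on control and 0.10 ± 0.12 on high fat in that Eloc probe set. On high fat they were 0.06 ± 0.03 and 0.07 ± 0.05 in these Ywhaq probe sets. Amplitudes this small leave the peak times uncertain, so such gaps are not read as courses in phase. Peak times have no finer resolution than the 4 h sampling.

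How much of the spread between time points lay at ZT8 and ZT12 differed between the genes. The range of the 6 group means in Scp2 was 0.64 on both diets, and over the 4 remaining times it was 0.31 on control and 0.04 on high fat. For Txndc17 the ranges of 1.13 and 0.37 became 0.06 and 0.12, and for Ywhaq 0.59 and 0.21 became 0.28 and 0.08. Btf3 kept 0.23 on control and went from 0.25 to 0.10 on high fat. Eloc went from 0.48 to 0.22 and from 0.33 to 0.12, and Tomm7 from 0.47 to 0.23 and from 0.58 to 0.32. Other probe sets kept more of their control range, with 0.58 of 0.79 in Eloc 1452593_PM_a_at and 0.37 of 0.44 in Eloc 1436226_PM_at. The diet by time F (5 coefficients) of Txndc17 was the highest of the table at 33.9, that of Scp2 was 29.43, of Tomm7 21.76, of Btf3 21.53, of Eloc 20.02 and of Ywhaq 16.26. Without both times the F of Txndc17 was 1.981 (rank 16143), of Scp2 6.007 (rank 1732), of Eloc 5.169 (rank 2670), of Tomm7 2.725 (rank 10451) and of Ywhaq 5.908 (rank 1805). Btf3 stayed at 15.47 (rank 40). In the top 5% of F, which holds 5% of probe sets, were 13 of 18, also without ZT8 or without ZT12, and 3 of 18 without both.

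**Figure D3:**
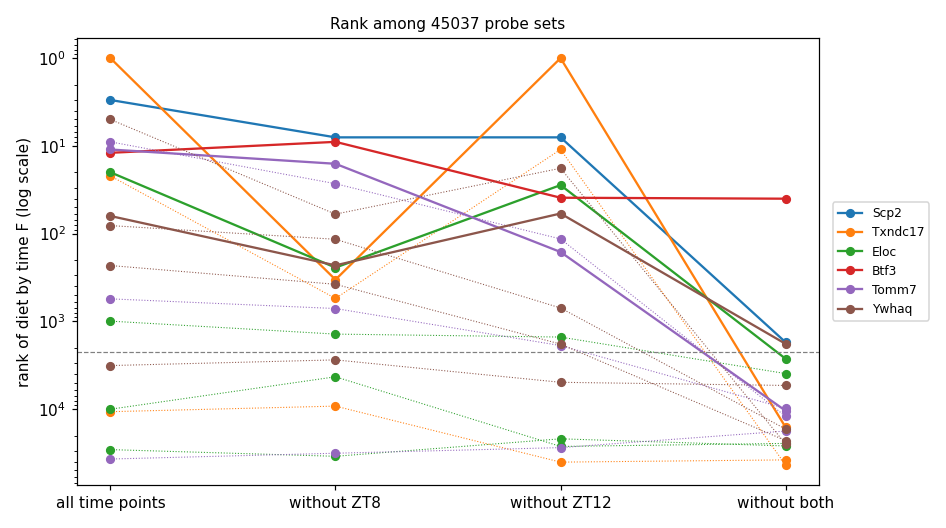
Rank of the diet by time F among 45037 probe sets (log axis, 1 at the top) with all time points, without ZT8, without ZT12 and without both, for 18 probe sets coloured by gene, thick lines for leading ones; the dashed line is the top 5%. Leaving out both times sends Txndc17 from rank 1 to 16143 while Btf3 goes from 12 to 40.

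With 1 probe set per gene the ranks by F were 1 for Txndc17, 2 for Scp2, 3 for Tomm7, 6 for Btf3, 10 for Eloc and 32 for Ywhaq. Just inside and just outside the last of them were Psmb1, a proteasome subunit, with F 16.4 at rank 31 and Pfdn4, a prefoldin subunit, with F 16.11 at rank 33. Between the members stood Kmt2c, Gna15, Selenoh, Rpl36a and Rpl36al, and lower down several ribosomal protein genes (Rps21, Rpl14, Rpl13, Rps26 and Rpl21) and oxidative phosphorylation genes (Ndufs6, Ndufa1 and Atp5l). The others between Eloc and Ywhaq were Rps15a-ps6, Mycbp2, Rpl34-ps1, Esd, Prpf4b, H2-Aa, Krtcap2, Sostdc1, Spcs1, Tln1, Nr4a2 and Snrpe.

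Tests were made on 3 quantities that the choice of genes did not use, in limma models fitted to all probe sets. The diet average and the time effect came from a model with 12 group means. They share the residual spread with the choosing contrast, and that spread was low in the members, with a median residual SD of 0.0948 against 0.131 over all probe sets. The cosine came from a model with diet, cosine, sine and their products with diet. Diet by time differences of another shape stay in the residual of the cosine model, so the cosine test is not free of the choice. Benjamini-Hochberg adjusted p-values are over all 45037.

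The diet average, the mean of the 6 differences weighted by array numbers, was small. Txndc17 was higher on high fat by 0.10 ± 0.03 (adjusted p = 0.0182), and it was the only one of 18 probe sets past 0.05, where 7.02% of all passed (3.82% higher, 3.20% lower). Its difference was positive at 2 of 6 times, and the call was lost without control ZT12 replicate 2, either control ZT8 array or high fat ZT8 replicate 1 (adjusted p 0.0569, 0.0889, 0.110 and 0.122). It was also lost with the diet and time group as a random block (0.545), without ZT8 (0.938) and without ZT12 (0.341). The random block model called 0 of all probe sets for the diet average. Scp2 had 0.09 ± 0.03 (adjusted p = 0.0718), Eloc 0.04 ± 0.02 (0.224), Tomm7 0.05 ± 0.03 (0.205), Btf3 0.01 ± 0.02 (0.645) and Ywhaq 0.03 ± 0.02 (0.415). Of the 18, 14 were positive, with a median of 0.03 against 0.005 over all probe sets. An unadjusted p under 0.05 was found in 5, not all in the same direction. Among them Eloc 1427915_PM_s_at was lower on high fat, at -0.32 ± 0.12 (adjusted p = 0.0885). Shares of all probe sets are not given for these counts, so nothing is read from them. A diet average over fewer times shares part of the contrast that chose the genes, so it is a description. Without ZT8 and ZT12 it was negative in 17 of 18, and on the leading probe sets it ran from -0.13 to -0.06.
The share of higher among all called probe sets was 54.4%, and 26.2% when the median of 1 probe set per gene was subtracted from each array, so the split over the table depends on that centring.

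The time effect averaged over the diets passed in 16 of 18 probe sets, where 53.6% of all did, and in all 6 leading ones. With probe sets below the median level left out, 69.8% of the rest passed, and most member probe sets lie above that level. The adjusted p was 1.45e-05 for Scp2, 7.36e-10 for Txndc17, 0.000272 for Eloc, 0.00602 for Btf3, 4.24e-07 for Tomm7 and 0.000188 for Ywhaq. Eloc 1427915_PM_s_at (0.430) and Tomm7 1428216_PM_s_at (0.958) did not pass. Without ZT8 and ZT12 the count was 11, where 33.3% passed. With the diet and time group as a random block, for a shared collection day, 6 of 18 passed, where 19.8% of all did, with Txndc17 (adjusted p = 0.00438) the only leading one. That model has no diet by time term, so the effect the genes were chosen on adds to their spread in it. A call lost there is therefore not read as a sign of a shared day. A 24 h cosine averaged over the diets passed in 3 of 18, all of Ywhaq (1420828_PM_s_at 0.0263, 1460621_PM_x_at 0.0111 and 1420830_PM_x_at 0.0420), where 11.4% passed. With the random block these adjusted p-values were 0.496, 0.208 and 0.254, and 1.84% of all probe sets passed. The residual of the cosine model holds part of the choosing contrast, so nothing is read from the count of 3.

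The courses of the leading probe sets were compared with each other over the groups. Across the 12 group means the 15 pairs had correlations from 0.34 (Txndc17 with Btf3) to 0.945 (Scp2 with Eloc), with a median of 0.803. The genes were chosen on a contrast of these same group means, so nothing is read from how alike they are. Deviations of the 41 arrays from their group means correlated from -0.267 (Scp2 with Txndc17) to 0.492 (Scp2 with Tomm7), with a median of 0.27. Array quality and cell content are shared by all probe sets of an array. Within a gene, the 5 Ywhaq probe sets correlated at 0.724 to 0.966 over the group means and the Eloc ones at -0.0649 to 0.754. The first pair of Txndc17 reached 0.955, while 1423036_PM_at had -0.488 and -0.532 with them.

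The genes most like the mean standardised profile of the 6 over 12 groups were Eif3i (r = 0.973), a translation initiation factor subunit, Tmed10 (0.971), a cargo receptor of the early secretory pathway, Atp5j2 (0.971), a subunit of ATP synthase, Srp9 (0.969), of the signal recognition particle, and Rpl22l1 (0.968), a ribosomal protein paralog. Rpl36a (0.966), Dnajc15 (0.965), Rpl9 (0.961), Rpl34-ps1 (0.958) and Atp5e (0.954) followed. Over the 8 groups without ZT8 and ZT12 their r ran from 0.780 for Rpl36a to 0.931 for Dnajc15. Of 17091 other genes, 86 (0.503%) had r above 0.9 and 3 below -0.9, and the median was 0.145. Rpl36a differed by 0.91 ± 0.14 at ZT8 and 0.70 ± 0.10 at ZT12, and Dnajc15 by 0.89 ± 0.29 and 1.05 ± 0.22.

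**Figure D4:**
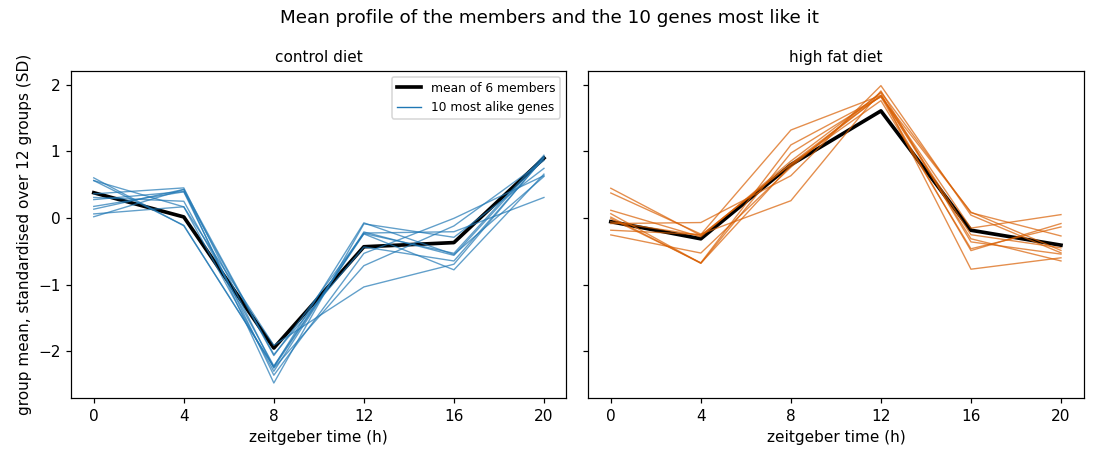
Group means standardised over 12 groups (SD units) against zeitgeber time in hours, for the mean of the 6 members (black) and the 10 most alike genes (thin lines), control on the left and high fat on the right. The control lines dip at ZT8 and the high fat lines peak at ZT12, with r of 0.954 to 0.973.

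Related genes were read from 6 lists that leave out the members. Mitochondrial import (TOM and TIM) had 18 measured genes of 21 on 31 probe sets. At ZT12, 18 of the 31 rose on high fat and 0 fell, where 10.4% of all probe sets rose and 8.13% fell, with a median of 0.36 against 0.02. At ZT8, 4 rose and 0 fell, where 3.74% rose and 3.54% fell, with a median of 0.30 against 0.01. Genes of the lists that are named for ZT8 or ZT12 were chosen after their values were seen. Tomm20, a receptor of the TOM channel, rose by 0.57 ± 0.12 on 1423079_PM_a_at at ZT12 (adjusted p = 0.00100), Tomm6 by 0.53 ± 0.11 on 1437336_PM_x_at (0.00110) and Timm23, the inner membrane channel, by 0.32 ± 0.06 (0.000380). On 1423087_PM_a_at, which has a higher mean value, Tomm6 had 0.18 ± 0.07 at ZT12 (adjusted p = 0.0763). Tomm20 passed at ZT12 on 1423080_PM_at and 1423081_PM_a_at as well, but not on 1435187_PM_at (0.20, adjusted p = 0.179). No probe set of the list changed in the diet average.

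The nascent chain and signal recognition list (15 of 19 genes, 37 probe sets) had 14 higher and 0 lower at ZT12 and 5 higher and 2 lower at ZT8. Naca, the alpha partner of Btf3, rose by 0.30 ± 0.06 at ZT12 (adjusted p = 0.000722) on 1416669_PM_s_at, and Srp9 on 1417530_PM_a_at by 0.75 ± 0.13 at ZT8 (0.000759) and 0.50 ± 0.10 at ZT12 (0.000985). On 1448753_PM_at, Srp9 had 0.06 ± 0.14 at ZT8 (adjusted p = 0.841) and 0.35 ± 0.10 at ZT12 (0.0191). In the diet average 1 rose and 2 fell. Sec61a1, of the translocon, rose on 1416189_PM_a_at by 0.06 ± 0.02 (adjusted p = 0.0286), while its other probe sets did not pass. Of the 3 Hspa14 probe sets 2 fell, by 0.11 ± 0.03 and 0.19 ± 0.06.

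The thioredoxin and peroxiredoxin list (19 of 21 genes, 45 probe sets) had 11 higher and 0 lower at ZT12 and 6 higher and 0 lower at ZT8, with medians of 0.235 and 0.122. Prdx1, a peroxiredoxin, rose on 1416000_PM_a_at by 0.42 ± 0.09 at ZT8 (adjusted p = 0.00331) and 0.32 ± 0.07 at ZT12 (0.00139). Txn1, thioredoxin itself, rose by 0.36 ± 0.09 at ZT8 (adjusted p = 0.0100) and 0.28 ± 0.07 at ZT12 (0.00407). Nxn, nucleoredoxin, rose on 1422465_PM_a_at by 0.66 ± 0.08 at ZT12 (7.91e-06) and, alone of the list, in the diet average by 0.13 ± 0.03 (0.0182). On 1422466_PM_at, Nxn had 0.07 ± 0.15 at ZT12 (adjusted p = 0.797) and -0.08 ± 0.06 in the diet average (0.453).

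In the elongin and cullin ligase list (23 of 23 genes, 55 probe sets) 8 rose and 4 fell at ZT12, and 3 rose and 1 fell at ZT8. Elob, the partner of elongin C, rose at ZT12 by 0.64 ± 0.12 on 1428263_PM_a_at (adjusted p = 0.000438) and 0.50 ± 0.11 on 1436949_PM_a_at (0.00151). In the diet average 1 rose, Klhdc3 on 1455910_PM_at by 0.15 ± 0.03 (adjusted p = 0.00426), and 4 fell, namely 1 probe set each of Socs5, Fem1b, Eloa and Zyg11b, by 0.16 ± 0.05, 0.12 ± 0.04, 0.22 ± 0.06 and 0.23 ± 0.07. The other Klhdc3 probe sets, all with higher mean values, had diet averages of 0.028, 0.005 and -0.0002 (adjusted p 0.765, 0.953 and 0.998). Zyg11b was named after its values were seen.

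The list of peroxisomal beta-oxidation (18 of 21 genes, 27 probe sets) had 5 higher and 1 lower at ZT12 and 0 higher and 2 lower at ZT8. Hsd17b4 rose by 0.38 ± 0.10 (adjusted p = 0.00736) and Phyh by 0.58 ± 0.15 (0.00822) at ZT12, both enzymes of the peroxisome. Crot, a carnitine transferase, fell by 0.56 ± 0.10 at ZT12 (0.000283), and Acaa1b, a thiolase, fell by 1.17 ± 0.22 at ZT8 (0.00132). In the diet average Acaa1a rose on 1456737_PM_x_at by 0.10 ± 0.03 (adjusted p = 0.0407). The other Acaa1a probe sets had 0.05, 0.07 and 0.06 and did not pass (adjusted p 0.487, 0.521 and 0.627).
Of the 14-3-3 genes (6 of 6, 17 probe sets), 2 rose and 2 fell at ZT12, and 0 rose and 2 fell at ZT8. Ywhab rose by 0.30 ± 0.08 at ZT12 on 1420878_PM_a_at, 1 of its 6 probe sets (adjusted p = 0.0104), and Ywhaz 1448218_PM_s_at fell by 0.18 ± 0.04 at ZT8 (0.0121) and 0.13 ± 0.03 at ZT12 (0.00601). The time effect passed in 15 of these 17 probe sets (88.2%), and in 58.2% to 66.7% of each of the other 5 lists. Of all probe sets 53.6% passed, or 69.8% with those below the median level left out.

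**Figure D5:**
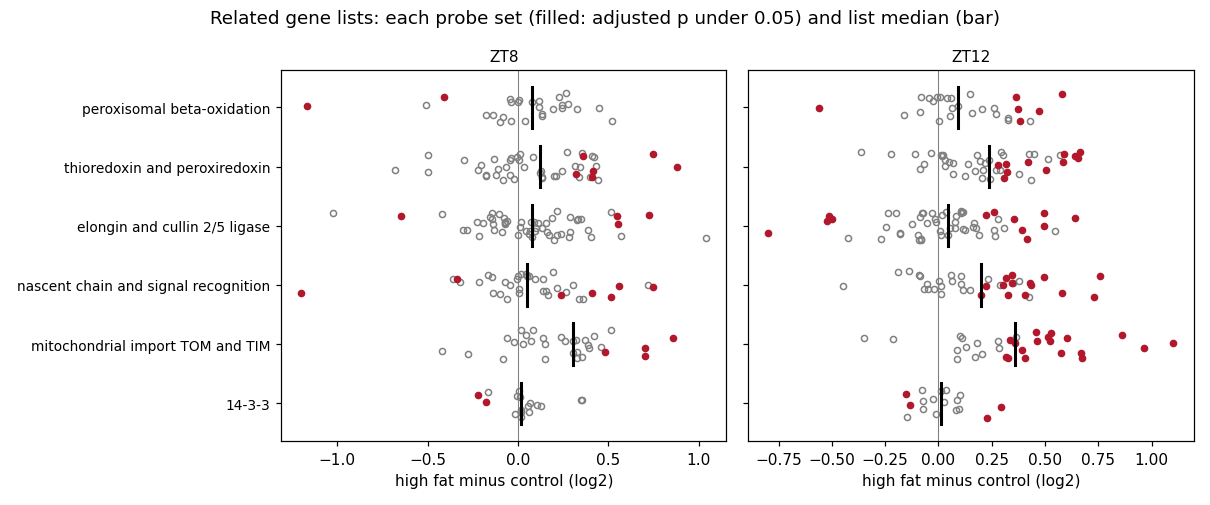
High fat minus control difference on the log2 scale (horizontal axis) for each probe set of the 6 lists (rows) at ZT8 and ZT12, filled where the adjusted p is under 0.05, with a bar at the list median. The mitochondrial import list has the bar farthest right at both times, at 0.303 for ZT8 and 0.358 for ZT12, and the 14-3-3 bars lie near 0.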

How the data were processed

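Arrays of 41 samples were used as the deposited log2 values, which the authors made with RMA per the submitters' processing notes. The method subtracts background, makes the arrays' distributions alike and gives 1 value per probe set. Its version is not given in the sources used here, nor is any batch adjustment. Probe sets were named through the platform annotation (28898 of 45141 with 1 gene, 551 with several, 15692 with none), and 16936 of 17097 symbols were found in the reference genes. The 104 control probe sets were left out of the tests. Tables were read with data.table (release 1.17.8) under R 4.3.3, and limma 3.58.1 fitted 12 group means to 45037 probe sets, with 29 residual and 2.377 prior degrees of freedom. Promoter windows and figures were made in Python 3.11.15 with pandas 2.3.3 and matplotlib 3.10.9. The members, lists and tests were chosen with earlier results of these data known. Named genes were all probe sets of the members, the 10 most alike genes, genes ranked between members by F, and up to 4 per list by the smallest adjusted p of the diet average, of which those past 0.05 are given. Other genes of the lists were chosen after their values were seen. Alternatives were other centrings, filters, weights, blocks and leaving out arrays or times. Precision is limited by how many arrays each group holds. The scripts were tested on simulated data.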

Additional observations from a re-analysis of the deposited data

Results flagged for a closer look

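Groups of 4 arrays were searched for a highest or lowest array far from the other 3. Of 126 combinations of probe set and group, 7 had such an array, and chance gives about 1 in 20. Control ZT20 replicate 2 was low in Scp2 1426219_PM_at at 8.828 (the others 9.058 to 9.078), in Btf3 1423839_PM_a_at at 11.54 (11.63 to 11.65) and in Tomm7 1428215_PM_x_at at 10.81 (11.01 to 11.03). Control ZT16 replicate 4 was low in Tomm7 1428215_PM_x_at at 10.65 (10.75 to 10.77) and in Tomm7 1428214_PM_at at 9.901 (10.15 to 10.17). High fat ZT16 replicate 1 was high in Ywhaq 1436846_PM_x_at at 10.16 (9.881 to 9.927), and high fat ZT20 replicate 1 was high in Ywhaq 1420830_PM_x_at at 10.00 (9.844 to 9.865).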

How the results depend on the processing

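Counts are of the 18 probe sets. The diet average called 1. It called 2 with array weights and 6 with equal weights of the time points. It called 0 without ZT8, without ZT12 or with the diet and time group as a random block. Of all 45037 probe sets it called 3162, or 4064 with array weights and 3728 with equal weights. It called 2648 of them without ZT8, 346 without ZT12 and 0 with the random block. Equal weights bring in part of the choosing contrast, so nothing is read from the 6. Of the 18, leaving out 1 array gave 0 to 3. It gave 0 for the 4 arrays named with Txndc17 above, 3 without control ZT20 replicate 4, and 2 without control ZT0 replicate 1 or 2, control ZT20 replicate 1 or 3, high fat ZT0 replicate 1, high fat ZT16 replicate 4 or high fat ZT20 replicate 2 or 4. The cosine called 3, where 11.4% of all probe sets passed. It called 1 with array weights, 0 without ZT8 or with the random block, 10 without ZT12 and 9 without both. With the random block 1.84% of all passed. Shares of all probe sets are not given for the other settings, so nothing is read from those counts. Leaving out 1 array gave 1 to 4, with 1 without control ZT20 replicate 1, 3 or 4 or either control ZT8 array. The time effect called 16 and the random block left 6. The diet by time F had 13 in the top 5% and 3 without ZT8 and ZT12. Leaving out 1 array gave 16 for the time effect and 13 to 14 for F. Diet averages on the leading probe sets changed sign as follows. Without both times they were -0.0594 for Btf3, -0.0709 for Eloc, -0.125 for Scp2, -0.10 for Tomm7, -0.0782 for Txndc17 and -0.0772 for Ywhaq. Without ZT12 they were -0.0317 for Btf3, -0.0033 for Eloc, -0.0167 for Scp2, -0.0319 for Tomm7 and -0.0205 for Ywhaq. Without ZT8 they were -0.0040 for Btf3, -0.0064 for Eloc and -0.0080 for Ywhaq. The mean of its probe sets gave -0.0426 for Eloc, and subtracting the median of 1 probe set per gene, chosen with 2 other centrings after seeing the data, gave -0.0067 for Btf3. Averages over fewer times or with equal weights share part of the choosing contrast. For the other changes the cause was not tested. Same-numbered arrays of different groups had deviations correlated at -0.0317 on average (n = 198, from -0.375 to 0.321). Arrays of different numbers had 0.0111 (n = 569, from -0.506 to 0.506). No pairing by number was seen in these averages, which cannot show that there is none. With the replicate block 1, 16 and 2 passed for the diet average, time effect and cosine, and over all probe sets the diet average called 2619 with it and 3162 without.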
